A study of Mus musculus with 33 samples.

Results

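A set of 75 cytosolic ribosomal protein genes of the mouse was followed here, out of 14717 genes measured by RNA sequencing of P19 cells. Members were every gene with the symbol Rpl or Rps followed by digits, with or without an a, l or x at the end, together with Rplp0, Rplp1, Rplp2 and Rpsa. The S6 kinase genes and the rows named as pseudogenes were left out. The members comprise 44 genes of the large subunit and 31 of the small subunit, and 8 further symbols that meet the rule (Rpl3l, Rpl6l, Rpl10l, Rpl24, Rpl32l, Rpl39l, Rpl41 and Rps4l) were not analysed here. P19 is an embryonal carcinoma line of the mouse that stays multipotent under maintenance and takes different routes under different inducers. The libraries formed 5 groups of 3. D0 was undifferentiated cells in maintenance medium. D3RA and D6RA were cells differentiated for 3 and 6 days under 1 µM all-trans retinoic acid (RA), and D3DMSO and D6DMSO were their counterparts under 1% dimethyl sulfoxide (DMSO). All 4 differentiated groups were grown as embryoid bodies for 2 days and then moved to flasks with maintenance medium, and all 5 groups came from the same line with no allele or transgene named in the labels. The samples of a group are described as biological replicates without a statement that separate cultures were used. The p-values here rest on scatter within groups of 3 samples, which may be technical only. That scatter was pooled over all 5 groups and is not that of the compared groups alone.

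A cytosolic ribosome is built from ribosomal RNA and a single copy of most of these proteins, so cells make the proteins in matched amounts, and growing and dividing cells make a great deal of them. Ribosomal protein mRNAs carry a 5′ terminal oligopyrimidine (TOP) tract, an unbroken run of C and T that begins with the C at the start of transcription, through which mTOR signalling and the RNA-binding protein LARP1 control their translation and stability. Ribosome output is known to be high in pluripotent cells and to be reset as they leave that state, and MYC is among the factors that drive transcription of ribosomal protein and ribosome assembly genes.

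The starts of several members whose values are described below show the tract that defines this family. Of the 75 members, 55 matched an entry of the RefSeq promoter table (GRCm38.p6), and 13 of these 55 (23.6%) had, at the annotated start, a C followed by 4 or more C or T, against 813 of 27025 genes in the table (3.0%). Each line gives 15 bases before the annotated start and 15 bases from it, 5′ to 3′, with the tract in capitals.
Rpl35 (chr2:39005117-39005146, minus strand): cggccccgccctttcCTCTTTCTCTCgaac
Rps15a (chr7:118116133-118116162, minus strand): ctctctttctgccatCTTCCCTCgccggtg
Rpl14 (chr9:120571502-120571531, plus strand): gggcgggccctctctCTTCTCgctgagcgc
Rpl28 (chr7:4792950-4792979, plus strand): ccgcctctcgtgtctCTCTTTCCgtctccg
Rplp2 (chr7:141447636-141447665, plus strand): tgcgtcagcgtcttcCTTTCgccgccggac
Rps18 (chr17:33955651-33955680, minus strand): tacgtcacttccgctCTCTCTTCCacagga
Rps6 (chr4:86857353-86857382, minus strand): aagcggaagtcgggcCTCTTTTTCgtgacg
Rps27 (chr3:90213634-90213663, minus strand): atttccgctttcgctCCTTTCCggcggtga
The start of transcription in these cells was not measured, and an annotated start that lies a few bases away hides the tract. In the 300-base promoter windows of the table, from 250 bases before to 50 after the start and on both strands, the ETS core CCGGAAG was present in 23 of 55 members (41.8%) and in 9.9% of all genes. The GC box GGGCGG was present in 34 members (61.8%) and in 38.2% of all genes. The E-box CACGTG was present in 6 members (10.9%) and in 8.1% of all genes, and TATAAA in 6 members (10.9%) and in 15.7% of all genes. For 2 members described below, the 60 bases before the annotated start are shown with the ETS core, or its reverse complement, in capitals.
Rpl38 (chr11:114668520-114668579, plus strand): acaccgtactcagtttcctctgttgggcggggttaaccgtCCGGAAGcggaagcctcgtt
Rps7 (chr12:28635954-28636013, minus strand): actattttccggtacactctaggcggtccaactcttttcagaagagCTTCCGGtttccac
A match of letters is a description of these windows and not evidence of binding.

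Depth differed between the days. The D0 libraries held 7.13 to 9.88 M counts each, those of D3RA 3.55 to 9.82 M, of D3DMSO 5.86 to 6.87 M, of D6RA 38.24 to 49.64 M and of D6DMSO 38.97 to 44.52 M, where M is 1000000 counts. The 11 mitochondrial genes of the table held no counts in D0 and D3 and took 41.6 to 42.6% of the counts in D6RA and 49.8 to 55.8% in D6DMSO, so a difference between D6 and D3 and a difference between these sets of libraries cannot be told apart. Lars2, Gm15564 and 2 features without a symbol took 23.2% of the non-mitochondrial counts in D0 replicate 2, 39.5 and 45.7% in D3RA replicates 2 and 3, and 32.8 and 24.0% in D3DMSO replicates 2 and 3, against at most 9.15% in the other 10 libraries. Counts of members are therefore also given without these 5 libraries, which leaves 1 library each in D3RA and D3DMSO, assumed to vary like the other groups. Summed marker levels differed between the groups for most lists. Levels are in CPM, counts per 1000000 of the scaled library size. The 6 of 8 pluripotency markers measured summed to 2590 to 2940 CPM in D0, 185 to 217 in D3RA, 1100 to 1600 in D3DMSO, 189 to 208 in D6RA and 486 to 501 in D6DMSO. The 7 of 8 neural markers summed to 313 to 356 CPM in D0, 1400 to 1540 in D3RA, 236 to 252 in D3DMSO, 3570 to 3770 in D6RA and 150 to 165 in D6DMSO. The 5 of 8 streak and mesoderm markers were highest in D3DMSO, at 1170 to 1280 CPM against at most 179 in any other library, with Wnt3a at 0 counts in D0 and Wnt8a at 0 in D3RA. The 4 of 6 cardiac markers were highest in D6DMSO, at 77.0 to 105 CPM against at most 22.7 in any other library, with Tnnt2 at 0 in D3RA. The 4 endothelial markers summed to 88.3 to 120 CPM in D3RA and at most 38.1 elsewhere, with Emcn at 0 in D3DMSO, and 3 of 6 endoderm markers to 132 to 333 CPM in all libraries. The part of these cell types in the levels of the members was not tested. No member had 0 counts in any library.

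Ribosomal protein transcripts were most abundant in D3RA and least abundant in D6RA. Their summed level was 30890, 27060 and 28127 CPM in the 3 D3RA libraries, against 25709, 21219 and 20474 CPM in D3DMSO and 22092, 22055 and 20167 CPM in D0. All 3 D3RA libraries lay above all 6 libraries of D3DMSO and D0. On day 6 the order of the treatments was the opposite. The sum was 13935, 14046 and 14029 CPM in D6RA, against 18758, 16973 and 18348 CPM in D6DMSO, without overlap. Fewer cells that make much of these mRNAs and less of them per cell cannot be told apart in bulk samples. As a share of all non-mitochondrial counts, where the 4 features take part of the denominator, the members held 2.36% in D3RA, 2.24% in D3DMSO and 2.15% in D0 on average, with SDs of 0.947, 0.687 and 0.185 points, so this share did not set D3RA apart. Without the 4 features in the denominator the shares were 3.29 ± 0.20% in D3RA, 2.76 ± 0.32% in D3DMSO and 2.50 ± 0.11% in D0 (SD, n = 3 each). On day 6 the share of all non-mitochondrial counts was 1.56 ± 0.012% in D6RA and 2.11 ± 0.081% in D6DMSO. Without the 4 features in the denominator it was 1.57 ± 0.0023% and 2.13 ± 0.081%. The large subunit members summed to 1.30 to 1.39 times the small subunit members in D3RA, 1.41 to 1.51 times in D3DMSO and 1.49 to 1.54 times in D0, so the D3RA libraries were the lowest of these 9 in that ratio. It was 1.39 to 1.43 in D6RA and 1.46 to 1.51 in D6DMSO. These sums were given no test because the list was chosen with results known.

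**Figure D1:**
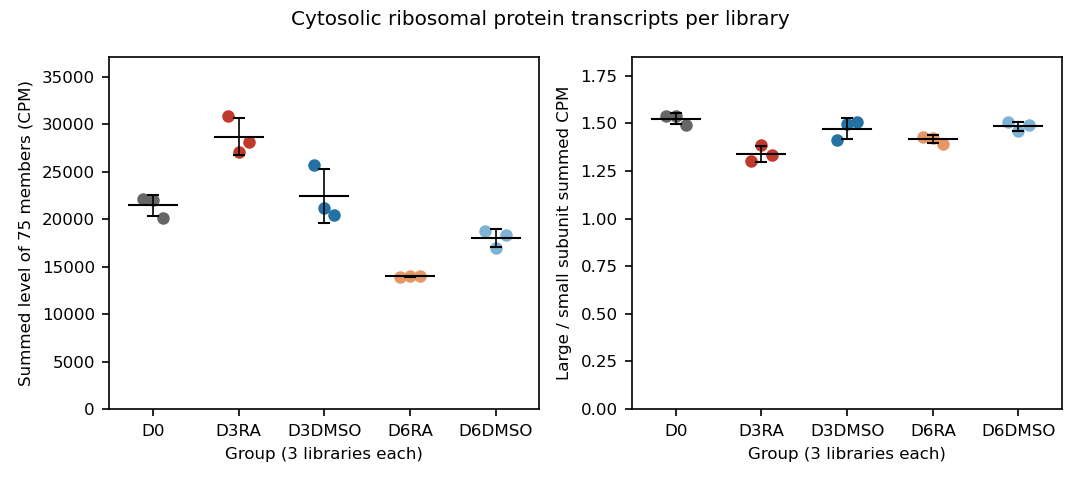
Summed level of the 75 members in CPM (left) and ratio of the summed large to small subunit members (right), by group. Points are libraries, bars are the mean and SD of 3 libraries, and both axes start at 0. The D3RA libraries sit highest (27060 to 30890 CPM) and the D6RA libraries lowest (13935 to 14046 CPM).

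Retinoic acid against DMSO on day 3 gave more members higher than lower. Of the 75 members, 35 rose and 13 fell in D3RA (limma on the deposited log2 values, Benjamini-Hochberg adjusted p under 0.05 over all genes), where 30.7% of all genes were higher and 31.4% lower. The share of members called higher was 46.7% and the share called lower 17.3%. The median log2 fold change was 0.23 over the members and −0.01 over all genes. The split was 24 higher and 16 lower after quantile normalization, where 4364 of all 14717 genes were higher and 4779 lower. In that fit the median was 0.14 over the members and −0.02 over all genes. With the total counts without mitochondrial genes and the 4 features as library size the split was 25 and 18. That size called 3792 of all genes higher and 5405 lower, with a median of 0.12 over the members and −0.11 over all genes. All non-mitochondrial counts as library size moved the median of all genes to −0.31 and that of the members to −0.08. That fit called 1826 of all 14717 genes higher and 4825 lower, and the split of members was 2 and 17. Without the 5 libraries named above it was 23 higher and 9 lower.

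Most members with many counts rose. Of the 42 members with a mean of 1000 counts or more over all libraries, 32 rose and none fell (median log2 fold change 0.44), and of the 33 members below 1000 counts, 3 rose and 13 fell (median −0.30). Rps26, a small subunit protein whose gene is mutated in Diamond-Blackfan anaemia, had 225, 217 and 265 CPM in D3RA and 137, 127 and 132 CPM in D3DMSO (log2 fold change 0.83 ± 0.07, adjusted p = 6.16e-08). The D3RA libraries all lay above the D3DMSO libraries. Rpl35, a protein near the exit of the peptide tunnel, had 202, 150 and 220 CPM in D3RA and 116, 104 and 96 CPM in D3DMSO (log2 fold change 0.84 ± 0.11, adjusted p = 4.57e-06), again without overlap. Rps28 had 346, 290 and 247 CPM in D3RA and 186, 176 and 178 CPM in D3DMSO (log2 fold change 0.69 ± 0.09, adjusted p = 5.66e-06). Rpl27a had 108, 102 and 85 CPM in D3RA and 61.2, 62 and 61 CPM in D3DMSO (log2 fold change 0.67 ± 0.09, adjusted p = 4.01e-06). In all 4 of these genes every D3RA library was above every D3DMSO library.

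The members that fell most between D3RA and D3DMSO all had few counts. Rpl3, a core protein of the peptidyl transferase centre, had 9.74, 9.45 and 8.68 CPM in D3RA and 21.8, 23 and 20.9 CPM in D3DMSO (log2 fold change −1.22 ± 0.14, adjusted p = 8.42e-07). Rps18, at the head of the small subunit, had 21.8, 12.7 and 11 CPM in D3RA and 35.1, 28.9 and 26.3 CPM in D3DMSO (log2 fold change −1.03 ± 0.18, adjusted p = 0.000103). Rps2 had 9.56, 8.47 and 5.02 CPM in D3RA and 18, 15.2 and 11.8 CPM in D3DMSO (log2 fold change −0.97 ± 0.20, adjusted p = 0.000467). The D3RA libraries lay below the D3DMSO libraries in these 3 genes. Rps6, the small subunit protein phosphorylated by S6 kinase, had 7.74, 5.54 and 6.39 CPM in D3RA and 11.6, 9.85 and 11.6 CPM in D3DMSO (log2 fold change −0.74 ± 0.17, adjusted p = 0.00142), not called without the 5 libraries (adjusted p = 0.0583). Rpl29 had 1, 0.326 and 1.37 CPM in D3RA and 1.93, 2.46 and 1.24 CPM in D3DMSO, a mean of 17.6 counts per library, with overlapping groups (log2 fold change −1.02 ± 0.41, adjusted p = 0.0401). The fall of Rpl29 was not called without the 5 libraries (adjusted p = 0.103), nor without D3RA replicate 1 or 2, D3DMSO replicate 1 or 2 or D6DMSO replicate 2 or 3 taken singly (adjusted p of 0.0505 to 0.214, with −0.55 without D3RA replicate 2). Ribosomal protein genes have many near-identical processed copies in the genome, and the falls of Rpl3 and Rps6 are uncertain for that reason, as set out with the named copies below.

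On day 6 most members fell in the RA group. In D6RA 49 of the 75 members fell and none rose relative to D6DMSO. The count of members that rose was 0 under each alternative that was run, except in a fit of those 2 groups alone, which called 1 member higher. Of all genes, 33.1% were lower and 32.6% higher. The median log2 fold change was −0.42 over the members and −0.02 over all genes, and 69 of 75 members had a value below 0. Members with 1000 counts or more fell in 25 of 42 cases (median −0.33) and those below in 24 of 33 (median −0.65). With all non-mitochondrial counts as library size 29 members fell, where 3659 of all 14717 genes were lower and 3037 higher. The D6 libraries hold 38.24 M counts or more each, and none belongs to the 5 libraries set apart above, without which 58 members fell.

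Of the high-count members, Rpl22, an RNA-binding protein of the large subunit that is dispensable for general translation in the mouse, had 186, 189 and 190 CPM in D6RA and 334, 296 and 306 CPM in D6DMSO (log2 fold change −0.73 ± 0.09, adjusted p = 1.19e-06). Rps19, the gene most often mutated in Diamond-Blackfan anaemia, had 251, 254 and 248 CPM in D6RA and 383, 336 and 368 CPM in D6DMSO (log2 fold change −0.53 ± 0.07, adjusted p = 7.6e-06). The D6RA libraries were below the D6DMSO libraries in both, and differed little among themselves. The 5 largest falls were in members below 1000 counts. Those of Rpl3 and Rps16 were smaller with their copies added, as set out below. Rpl12, part of the stalk base, had 22.9, 23.8 and 22.9 CPM in D6RA and 72.5, 71.5 and 69.1 CPM in D6DMSO (log2 fold change −1.61 ± 0.14, adjusted p = 2.44e-08). Rpl3 had 5.46, 4.83 and 4.66 CPM in D6RA and 15.6, 17.2 and 17.8 CPM in D6DMSO (log2 fold change −1.75 ± 0.14, adjusted p = 6.2e-09). Rps16 had 1.59, 2.29 and 2.32 CPM in D6RA and 5.35, 4.58 and 5.47 CPM in D6DMSO (log2 fold change −1.32 ± 0.32, adjusted p = 0.00143). In these 3 genes no library of D6RA reached the lowest D6DMSO library. Rps2 and Rps18 fell by 1.14 ± 0.20 and 1.10 ± 0.18 on the log2 scale. At the other end, Rps10 had 82.6, 82.4 and 77.5 CPM in D6RA and 78.3, 63 and 77.1 CPM in D6DMSO, the highest value of the family in that comparison and not called (log2 fold change 0.16 ± 0.22, adjusted p = 0.549).

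The response to RA differed between the days. In the interaction of treatment and day, which is the RA minus DMSO difference on day 6 less that on day 3, 47 members were lower and none higher, where 23.1% of all genes were lower and 25.4% higher. The median was −0.61 over the members and 0.04 over all genes. With all non-mitochondrial counts as library size 5 members were called lower, where 1170 of all 14717 genes were lower and 2593 higher. In that fit the median was −0.38 over the members and 0.27 over all genes. Rps26 showed the largest difference (difference of log2 fold changes −1.37 ± 0.11, adjusted p = 2.1e-08). It had 88, 96.6 and 95.7 CPM in D6RA and 131, 143 and 135 CPM in D6DMSO, so that the DMSO groups of the 2 days were at nearly the same level while the RA groups lay on either side of them. Rpl22 (difference of log2 fold changes −1.28 ± 0.12, adjusted p = 2.64e-07), Rpl35 (difference of log2 fold changes −1.25 ± 0.16, adjusted p = 5.18e-06) and Rpl14 (difference of log2 fold changes −1.11 ± 0.16, adjusted p = 3.24e-05) had the next values. Rpl31 had 24.4, 22.5 and 26.5 CPM in D3RA, against 17.1, 15.8 and 16.4 CPM in D3DMSO, and 10.6, 11.2 and 11 CPM in D6RA and 19.3, 13.7 and 14.9 CPM in D6DMSO (difference of log2 fold changes −1.10 ± 0.19, adjusted p = 0.00014). In each of these 5 genes the RA libraries lay above the DMSO libraries on day 3 and below them on day 6.

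**Figure D2:**
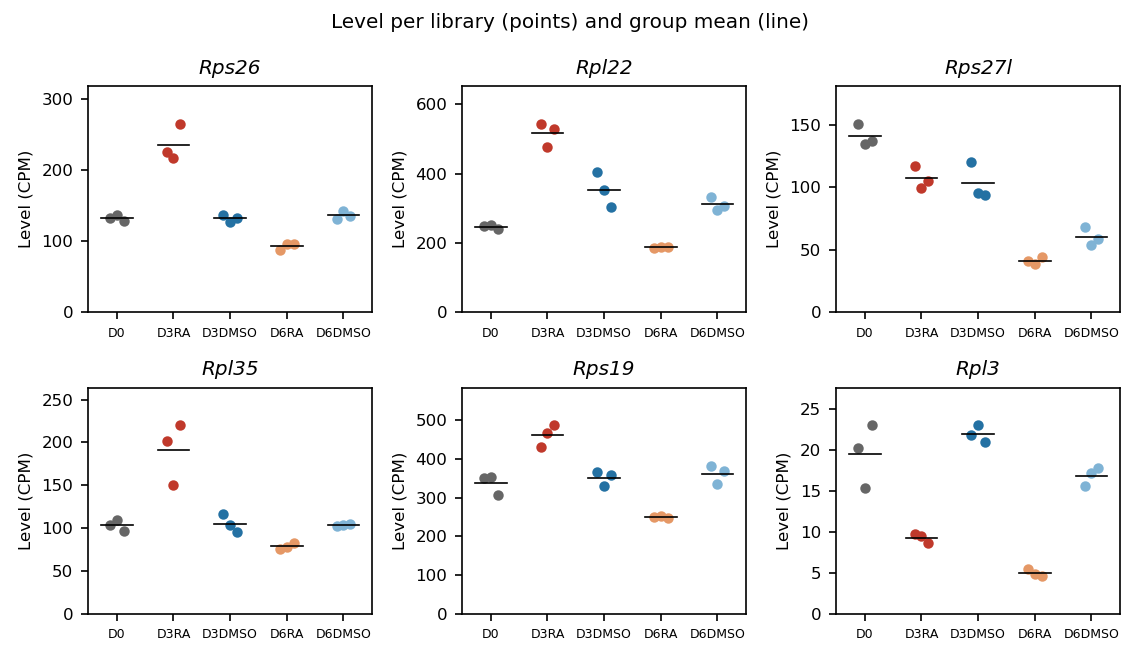
Level in CPM of 6 members in each library (points) with the group mean (line); axes start at 0. Rps26, Rpl22, Rpl35 and Rps19 are highest in D3RA and lowest in D6RA, Rps27l is highest in D0, and Rpl3 is low in both RA groups.

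Against undifferentiated cells, the day 3 RA group had 36 members higher and 12 lower, where 35% of all genes were higher and 33.9% lower, with a median log2 fold change of 0.28 over the members and 0.01 over all genes. With all non-mitochondrial counts as library size, 2382 of all 14717 genes were higher and 5558 lower, with a median of −0.35. In that fit the split of members was 4 higher and 13 lower, with a median of −0.08. Without the 5 libraries it was 42 and 5. Rps15a had 467, 444 and 600 CPM in D3RA and 235, 253 and 221 CPM in D0 (log2 fold change 1.08 ± 0.13, adjusted p = 1.44e-06). Rpl22 had 544, 476 and 530 CPM in D3RA and 249, 252 and 240 CPM in D0 (log2 fold change 1.06 ± 0.09, adjusted p = 1.24e-08). These 2 were the members called with a log2 fold change of 1 or more, and their D3RA libraries all lay above D0. Rpl23 rose by 0.97 ± 0.14 on the log2 scale, and Rps4x, the X-linked form of a small subunit protein, by 0.88 ± 0.09. Rpl27 had 31.1, 29.3 and 22.8 CPM in D3RA and 58.4, 38.7 and 40.7 CPM in D0 (log2 fold change −0.71 ± 0.15, adjusted p = 0.000495), and was, with Rpl3, Rps2, Rps18 and Rplp2, among the 5 lowest. Of these, Rps18 (−0.14, adjusted p = 0.342) and Rplp2 (−0.50, adjusted p = 0.105) were not called without the 5 libraries.

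The day 3 DMSO group stayed nearer to D0. In D3DMSO 20 members were higher and 8 lower than in D0, where 28.2% of all genes were higher and 27.8% lower, and the share of members called higher, 26.7%, was near that of all genes. The median log2 fold change was 0.10 over the members and 0.02 over all genes. With all non-mitochondrial counts as library size, which called 2131 of all 14717 genes higher and 2343 lower, the split of members was 0 and 0. It was 26 and 4 after quantile normalization, where 3927 of all 14717 genes were higher and 4168 lower. With total counts without mitochondrial genes and the 4 features it was 21 and 3, where 4746 of all genes were higher and 3490 lower. After thinning all libraries to 1 size it was 13 and 4. Single libraries moved it as well. It was 13 higher and 13 lower without D3DMSO replicate 1, 12 and 8 without D0 replicate 3, 18 and 4 without D0 replicate 1, 16 and 5 without D0 replicate 2, 19 and 5 without D3DMSO replicate 2, and 22 and 4 without D3DMSO replicate 3. Without the 5 libraries 32 members were higher and 0 lower. Rpl22 had 405, 353 and 305 CPM in D3DMSO (log2 fold change 0.51 ± 0.09, adjusted p = 9.78e-05), and Rps15a 339, 348 and 341 CPM (log2 fold change 0.54 ± 0.13, adjusted p = 0.00225), so the members that rose most in D3RA over D0 were also above D0 in D3DMSO, against the same D0 libraries. Rpl5 had 30.7, 31.8 and 30.7 CPM in D3DMSO and 19, 17.6 and 23.8 CPM in D0 (log2 fold change 0.64 ± 0.13, adjusted p = 0.000546). Rpl36a rose by 0.74 ± 0.19 on the log2 scale, with 127 counts on average, and was not called with its copies added (0.51, adjusted p = 0.107). The lowest called value was that of Rps27l, at −0.46 ± 0.10, followed by Rpl14 at −0.42 ± 0.12 and Rpl27 at −0.36 ± 0.15, and Rpl37a was at −0.27 ± 0.10. None of these 4 was called without the 5 libraries (adjusted p of 0.0579 for Rpl14 to 0.305 for Rpl37a). The value of Rpl27 (adjusted p = 0.0488) lost its call in 16 of 28 alternatives, among them the omission of D0 replicate 1 (−0.18), D3DMSO replicate 2 (−0.26) or D3DMSO replicate 3 (−0.34), and of 7 single libraries of other groups, where the value stayed at −0.36. That of Rpl37a lost it without D0 replicate 1 or 2 or D3DMSO replicate 2 or 3 taken singly.

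Between day 3 and day 6 nearly the whole family fell in the RA groups. In D6RA 68 members were lower than in D3RA and none higher, where 32% of all genes were lower and 37.2% higher, and 33 of the 68 fell by 1 or more on the log2 scale. The median was −0.94 over the members and 0.07 over all genes. With all non-mitochondrial counts as library size, 27 members were lower, where 1393 of all 14717 genes were lower and 7087 higher. That size puts the median of all genes at 0.57 and that of the members at −0.44. Rps25 had 59.1, 68.1 and 63.6 CPM in D6RA and 263, 166 and 225 CPM in D3RA (log2 fold change −1.75 ± 0.16, adjusted p = 7.16e-08). Rps7, a small subunit protein needed early in assembly in human cells, had 15.8, 18.1 and 19.6 CPM in D6RA and 81.1, 44.9 and 53.4 CPM in D3RA (log2 fold change −1.71 ± 0.21, adjusted p = 2.02e-06). Rps20 had 247, 246 and 247 CPM in D6RA and 911, 646 and 645 CPM in D3RA (log2 fold change −1.56 ± 0.13, adjusted p = 3.61e-08). The groups were well apart in each. D3RA replicate 1, the deepest library of its group, was its highest in all 3 genes. Rpl13 and Rpl26 fell by 1.64 ± 0.17 and 1.49 ± 0.16 on the log2 scale.

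In the DMSO groups the step was smaller. In D6DMSO 42 members were lower and 2 higher than in D3DMSO, where 28.1% of all genes were lower and 28.3% higher, with a median of −0.33 over the members and 0.01 over all genes. With all non-mitochondrial counts as library size 3 members were lower and 2 higher, where 1064 of all 14717 genes were lower and 4037 higher. In that fit the median of all genes was 0.28 and that of the members −0.06. Rps7 had 20, 15.6 and 21.1 CPM in D6DMSO and 60.5, 41.9 and 32.5 CPM in D3DMSO (log2 fold change −1.22 ± 0.21, adjusted p = 0.000121). Rpl27 had 16.9, 17.1 and 17.1 CPM in D6DMSO and 41.6, 30.4 and 34.1 CPM in D3DMSO (log2 fold change −1.04 ± 0.15, adjusted p = 2.08e-05). Rpl13, Rps10 and Rpl30 fell by 0.95 ± 0.17, 0.94 ± 0.22 and 0.88 ± 0.18 on the log2 scale. The 2 members that rose were Rpl23, with 267, 193 and 215 CPM in D6DMSO and 158, 164 and 172 CPM in D3DMSO (log2 fold change 0.44 ± 0.14, adjusted p = 0.0144), and Rpl28, with 7.89, 10 and 11.8 CPM in D6DMSO and 6.08, 5.34 and 6.51 CPM in D3DMSO (log2 fold change 0.70 ± 0.22, adjusted p = 0.0118). Rpl23 was not called without D6DMSO replicate 1 (adjusted p = 0.0877) and Rpl28 not without D6DMSO replicate 3 (adjusted p = 0.0667), each of which left 1 member higher, and leaving out D3DMSO replicate 1 gave 3. The day cannot be told apart from the depth and mitochondrial share of the libraries in either route.

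**Figure D3:**
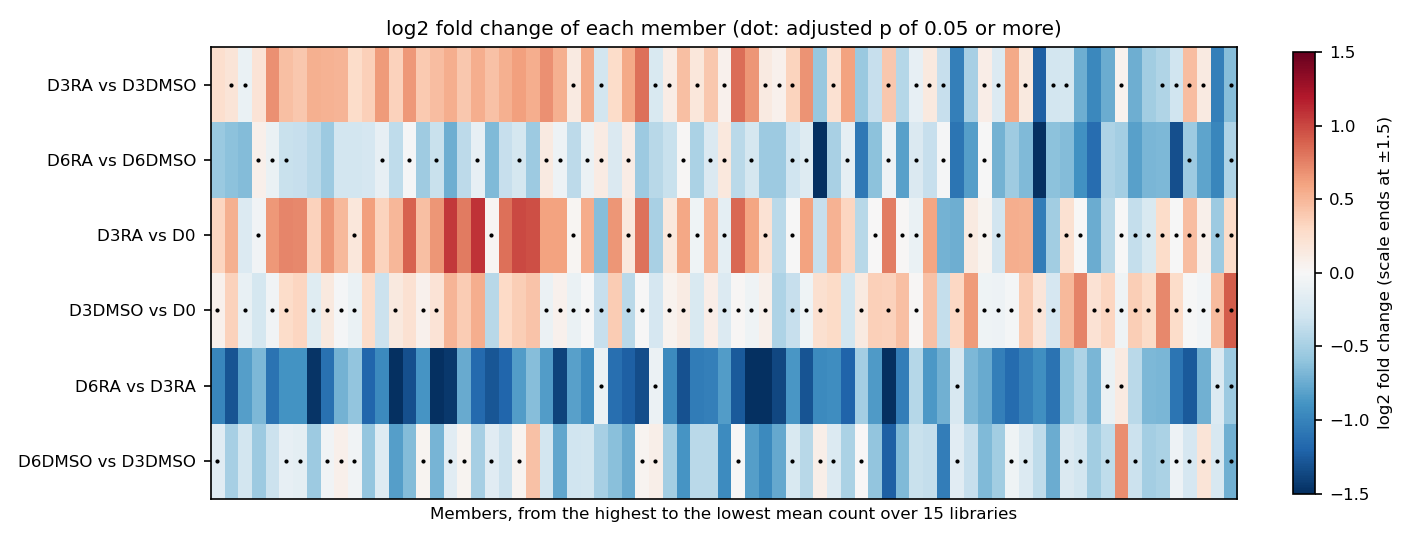
Log2 fold change of each of the 75 members (columns, ordered from the highest to the lowest mean count) in 6 comparisons (rows), with colour limited to ±1.5 and a dot where the adjusted p was 0.05 or more. The D3RA vs D3DMSO row is mostly above 0 at the left, where counts are high, and mostly below 0 at the right, and the D6RA vs D3RA row is below 0 in 74 of 75 members.

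The acidic stalk, which recruits translation factors to the large subunit, was called in part only. Rplp0, its anchor, had 1650, 1710 and 1470 CPM in D3RA and 1500, 1340 and 1330 CPM in D3DMSO (log2 fold change 0.21 ± 0.08, adjusted p = 0.0331), with 1 D3RA library inside the D3DMSO range, and a value of −0.10 with all non-mitochondrial counts as library size. That rise was not called without the 5 libraries (adjusted p = 0.317), or without D3RA replicate 1 or 2 or D3DMSO replicate 2 or 3 taken singly (adjusted p of 0.0905 to 0.116). Rplp1 had 1500, 1260 and 1480 CPM in D3RA and 1050, 994 and 893 CPM in D3DMSO (log2 fold change 0.53 ± 0.09, adjusted p = 8.04e-05). Rplp2 had 139, 105 and 142 CPM in D3RA and 193, 137 and 141 CPM in D3DMSO (log2 fold change −0.28 ± 0.17, adjusted p = 0.169), overlapping. Rplp1 and Rplp2 act as dimers on Rplp0. On day 6, Rplp1 fell in D6RA, with 498, 502 and 522 CPM against 687, 640 and 692 CPM in D6DMSO (log2 fold change −0.41 ± 0.09, adjusted p = 0.000769). Rplp0, with 1010, 1030 and 994 CPM in D6RA and 945, 918 and 1010 CPM in D6DMSO, and Rplp2, with 110, 137 and 113 CPM in D6RA and 137, 83.6 and 117 CPM in D6DMSO, were not called (adjusted p = 0.388 and 0.558). The interaction was called for Rplp1 (difference of log2 fold changes −0.93 ± 0.13, adjusted p = 1.38e-05) and not for Rplp0 (difference of log2 fold changes −0.13 ± 0.11, adjusted p = 0.381) or Rplp2 (difference of log2 fold changes 0.40 ± 0.24, adjusted p = 0.187); the difference between the 3 genes was not tested.

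Rpl5 and Rpl11 form, with 5S ribosomal RNA, the particle that can bind Mdm2 and stabilise p53 when ribosome assembly fails. Rpl5 had 23.5, 25.1 and 17.8 CPM in D3RA and 30.7, 31.8 and 30.7 CPM in D3DMSO (log2 fold change −0.50 ± 0.13, adjusted p = 0.00328), a fall not called without the 5 libraries (adjusted p = 0.081), and 13.3, 14.9 and 13.3 CPM in D6RA and 25.1, 22.8 and 26 CPM in D6DMSO (log2 fold change −0.83 ± 0.13, adjusted p = 2.6e-05). Rpl11 had 13.3, 12.7 and 10.5 CPM in D3RA and 16.6, 15.2 and 12.2 CPM in D3DMSO (log2 fold change −0.26 ± 0.15, adjusted p = 0.152), and 8.34, 9.06 and 6.67 CPM in D6RA and 12.8, 11.8 and 13 CPM in D6DMSO (log2 fold change −0.65 ± 0.15, adjusted p = 0.00105). Both genes were thus lower in D6RA without overlap. Their mean counts were 293 and 154 per library. Of 16 measured genes on a list of p53 targets and 5S partners, 5 rose and 5 fell in D3RA relative to D3DMSO (median 0.00), and 4 rose and 6 fell in D6RA relative to D6DMSO (median −0.16), near the 30.7% higher and 31.4% lower of all genes on day 3 and the 32.6% and 33.1% on day 6. Mdm2 was at 82.0 ± 0.16 CPM in D6RA and 79.5 ± 5.8 CPM in D6DMSO (log2 fold change 0.05, adjusted p = 0.579).

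Rps27 and Rps27l are paralogs whose proteins take the same place in the small subunit, and Rps27l is known as a p53 target in human cells. Rps27l had the largest F statistic of the family across the 5 groups. It had 151, 135 and 137 CPM in D0, 117, 99.7 and 105 CPM in D3RA, 120, 95.9 and 94.2 CPM in D3DMSO, 41.1, 39.1 and 44.3 CPM in D6RA and 68.2, 54 and 59.1 CPM in D6DMSO, a fall with time on both routes. It was lower in D3RA than in D0 (log2 fold change −0.40 ± 0.10, adjusted p = 0.0028), a call lost without the 5 libraries (adjusted p = 0.0678), and lower in D6RA than in D3RA (log2 fold change −1.37 ± 0.10, adjusted p = 7.96e-09). D3RA and D3DMSO did not differ beyond their spread (log2 fold change 0.06 ± 0.10, adjusted p = 0.629), and D6RA was below D6DMSO (log2 fold change −0.54 ± 0.10, adjusted p = 0.000217). The row of Rps27 held 56.1 counts on average and that of its copy Rps27rt 1402. Rps27 had 3.64, 4.89 and 5.02 CPM in D3RA and 4.83, 7.59 and 6.51 CPM in D3DMSO (log2 fold change −0.45 ± 0.21, adjusted p = 0.0731), while Rps27rt, with 174 ± 5.6 CPM in D3RA against 102 ± 4.3 CPM in D3DMSO, rose by 0.77 on the log2 scale (adjusted p = 7.25e-06).

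Rpl22 and its paralog Rpl22l1, which lies outside the rule and can replace Rpl22 in ribosomes of the mouse, moved in the same directions between treatments. Rpl22l1 had 240 ± 66 CPM in D3RA, against 172 ± 57 CPM in D3DMSO (log2 fold change 0.50, adjusted p = 0.0252), and 58.4 ± 2.6 CPM in D6RA and 100 ± 11 CPM in D6DMSO (log2 fold change −0.77, adjusted p = 0.00129). From day 3 to day 6 the values of the pair in the DMSO groups differed. Rpl22 was at 334, 296 and 306 CPM in D6DMSO and 405, 353 and 305 CPM in D3DMSO (log2 fold change −0.17 ± 0.09, adjusted p = 0.097), and Rpl22l1 had a log2 fold change of −0.74 (adjusted p = 0.0026); the difference between the genes was not tested.

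Among members with known tissue roles, Rps19, Rps26 and Rpl35a are mutated in Diamond-Blackfan anaemia, and Rpsa, also known as the laminin receptor, in a human disorder of spleen formation. Rps19 had 432, 466 and 487 CPM in D3RA and 367, 331 and 358 CPM in D3DMSO (log2 fold change 0.39 ± 0.07, adjusted p = 0.000211), a rise not called without the 5 libraries (adjusted p = 0.101). Rpl35a had 82.3, 65.1 and 62.1 CPM in D3RA and 67.4, 55.6 and 55.8 CPM in D3DMSO (log2 fold change 0.23 ± 0.10, adjusted p = 0.0625), overlapping, and 35.8, 38.9 and 35.1 CPM in D6RA and 53.7, 50.2 and 49.9 CPM in D6DMSO (log2 fold change −0.49 ± 0.10, adjusted p = 0.000435). Rpsa had 306, 442 and 415 CPM in D3RA and 240, 341 and 299 CPM in D3DMSO (log2 fold change 0.40 ± 0.14, adjusted p = 0.0171), with overlapping groups, and 229, 226 and 226 CPM in D6RA and 316, 287 and 293 CPM in D6DMSO (log2 fold change −0.39 ± 0.14, adjusted p = 0.0172), a fall not called without D6DMSO replicate 1 (adjusted p = 0.0595). The rise of Rpsa was not called after quantile normalization or with total counts as library size, nor without D3DMSO replicate 1, D3RA replicate 2 or D3RA replicate 3 taken singly (adjusted p of 0.0657 to 0.101). Rpl39, a small protein of the exit tunnel with a germ cell paralog, had 378, 300 and 382 CPM in D3RA and 291, 212 and 235 CPM in D3DMSO (log2 fold change 0.53 ± 0.12, adjusted p = 0.0012), a rise not called without the 5 libraries (adjusted p = 0.0676). Rpl10, which joins the large subunit late, had 29, 28.7 and 21.9 CPM in D3RA and 28.6, 24 and 34.4 CPM in D3DMSO, and was called neither there nor on day 6 (adjusted p = 0.419 and 0.134). Rps4x had 296, 284 and 288 CPM in D6RA and 312, 292 and 280 CPM in D6DMSO (log2 fold change −0.02 ± 0.09, adjusted p = 0.822), although it had risen in D3RA (log2 fold change 0.65 ± 0.09, adjusted p = 6.86e-06).

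Many ribosomal protein mRNAs have been copied back into the genome, and how reads that fit both a gene and its copy were counted is not given in the sources used here. For 32 of the 75 members the table also holds rows of named copies (symbols ending in -ps with or without a number, or in rt), and in 15 of these the copies together held more counts than the gene. Rpl3 held 180 counts on average and Rpl3-ps1 3594. Rps6 held 113 counts and Rps6-ps4 1930. Rps16 held 56.1 counts and Rps16-ps2 2325. Rpl38, required for translation of Hox mRNAs in the mouse embryo, held 56.7 counts and Rpl38-ps2 1901. Rpl10a held 551 counts and Rpl10a-ps1 3505. Across the 75 members, the mean count correlated with the number of named pseudogenes in the reference at a Spearman rho of −0.45. Only symbols ending in -ps were counted for this, and 16 members had none. Rpl37 is among the 16, although its copy Rpl37rt held 3260 counts on average against 2537 for the gene. As a description, these 16 had 10 higher and 0 lower in D3RA relative to D3DMSO (median 0.31). They had 0 higher and 10 lower in D6RA relative to D6DMSO (median −0.40). Of all genes, 30.7% were higher and 31.4% lower on day 3, and 32.6% and 33.1% on day 6.

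When the counts of the named copies were added to their gene, a setting chosen after the data were seen, 38 members were higher and 6 lower in D3RA relative to D3DMSO, and the value changed sign in 11 of the 32. In the fit without copies added, 30.7% of all genes were higher and 31.4% lower there. These shares were 32.6% and 33.1% in D6RA relative to D6DMSO, 35% and 33.9% in D3RA relative to D0, and 25.4% and 23.1% in the interaction. Rpl3 with its copy had a log2 fold change of 0.19 ± 0.11 (adjusted p = 0.129), against −1.22 alone. Rps6 had 0.20 ± 0.09 (adjusted p = 0.0654), against −0.74 alone. Rpl38 had 0.52 ± 0.13 (adjusted p = 0.00315), against −0.52 alone, a value that was −0.17 without the 5 libraries (adjusted p = 0.614), and Rps27 with Rps27rt had 0.72 ± 0.10 (adjusted p = 1.17e-05), against −0.45 alone. The low values of these 4 genes between D3RA and D3DMSO thus depended on which rows were read. Rps2 and Rpl5 stayed called lower, at −0.94 ± 0.19 (adjusted p = 0.000339) and −0.45 ± 0.14 (adjusted p = 0.00918). Their copies held few counts, 8.3 on average for Rps2-ps10 and 19.1 for Rpl5-ps2, against 125.6 and 293.1 for the genes. Adding them could therefore change these 2 values little. Rpl36a was no longer called, at −0.30 ± 0.26 (adjusted p = 0.334), against −0.73 alone, and Rps18 and Rpl29 have no named copy in the table. Between D6RA and D6DMSO the direction held in 31 of the 32, with 48 members lower and 0 higher over the 75. The exception was Rpl38, at 0.04 ± 0.13 (adjusted p = 0.802), and Rpl3 with its copy was at −0.76 ± 0.11 (adjusted p = 8.32e-06), against −1.75 alone. Rps16 with its copy was at −0.76 ± 0.14 (adjusted p = 0.000156) between D6RA and D6DMSO, against −1.32 alone. Between D3RA and D3DMSO it was at 0.50 ± 0.14 (adjusted p = 0.00558), against −0.30 alone. In D3RA relative to D0, 41 were higher and 10 lower with copies added, and Rpl3 was at 0.23 ± 0.11 (adjusted p = 0.0701), against −1.04 alone. The interaction had 54 lower and 0 higher.

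**Figure D4:**
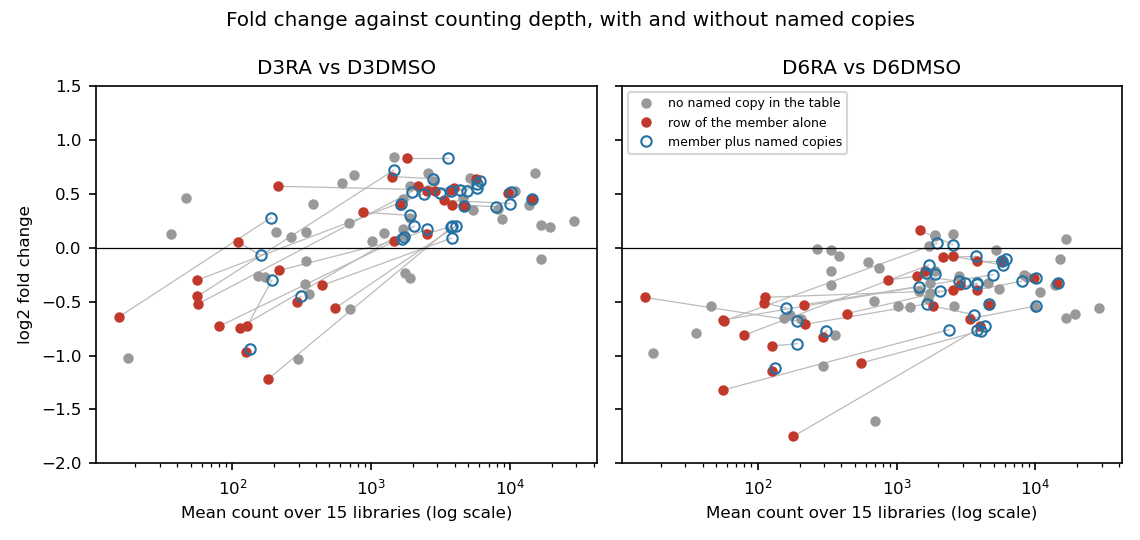
Log2 fold change against the mean count over 15 libraries (log axis) for D3RA vs D3DMSO (left) and D6RA vs D6DMSO (right). Grey points are members without a named copy in the table, filled red points the other members alone, and open blue points the same members with their copies added, joined by lines. On the left, 11 of the 32 joined members cross 0, and on the right 1.

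Most members varied together across the 15 libraries. The Pearson correlation of each member with the mean of the others, over 15 libraries that share depth and library set, had a median of 0.817 and ran from −0.351 for Rpl28 to 0.976 for Rps3, with 39 of 75 members over 0.8 and 1 below 0. Low values were found at few and at many counts, as in Rpl29 (0.341, with 17.6 counts on average), Rpl23 (0.185, with 2582 counts), Rpl6 (0.313, with 1753 counts), Rplp2 (0.441, with 1901 counts) and Rpsa (0.450, with 3812 counts). Rpl28 had 5.37, 4.89 and 8.68 CPM in D3RA, against 5.03, 6.6 and 7.28 CPM in D0, and its highest group mean was that of D6DMSO, with 7.89, 10 and 11.8 CPM. The F test across the 5 groups called 73 of the 75 members, where 96% of all genes were called. The largest F statistics were those of Rps27l, Rplp1, Rpl3, Rps26 and Rpl22, and the smallest those of Rps23, Rpl28, Rpl29, Rps29 and Rpl23a, of which Rps29 and Rpl23a were not called (adjusted p = 0.0761 and 0.126). Rps29 had 1.69, 1.84 and 1.75 CPM in D6RA and 2.54, 2.94 and 3.81 CPM in D6DMSO (log2 fold change −0.79 ± 0.28, adjusted p = 0.0189), not called without D6DMSO replicate 3 (adjusted p = 0.0923) or D6RA replicate 1 (adjusted p = 0.053). Rpl23a had 0.894, 0.738 and 0.814 CPM in D6RA and 1.1, 1.05 and 1.23 CPM in D6DMSO (log2 fold change −0.46 ± 0.42, adjusted p = 0.354). Outside the members, the profiles most like the mean of the family were those of Rack1 (r = 0.987), which sits on the small subunit as a signalling scaffold, Rpl3-ps1 (0.985), Nudcd2 (0.983), Eif3m, a subunit of initiation factor 3 (0.979), and Rfc4, of the clamp loader of DNA replication (0.978), all over the same 15 libraries.

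Counts of other mRNAs with a TOP tract lay in the same directions between treatments. The list, written from general knowledge, held translation factors and their partners, and 23 were measured. Some of these, among them Fau and Rack1, are also on the list of ribosomal proteins outside the rule. In D3RA relative to D3DMSO 11 rose and 2 fell (median 0.16), and in D6RA relative to D6DMSO none rose and 15 fell (median −0.31), where 46.7% and 17.3% of the members were higher and lower on day 3 and 65.3% lower on day 6. The shares of all genes were 30.7% higher and 31.4% lower on day 3 and 33.1% lower on day 6. Eef1a1, the main elongation factor, rose to 6560 ± 710 CPM in D3RA against 4750 ± 350 CPM in D3DMSO (log2 fold change 0.46, adjusted p = 0.000937). Naca, which guards nascent chains, rose by 0.63 on the log2 scale in D3RA and fell in D6RA with a log2 fold change of −0.26. Gas5, a TOP transcript that hosts small nucleolar RNAs, was at 87.5 ± 2.3 CPM in D6RA and 170 ± 4.6 CPM in D6DMSO (log2 fold change −0.96, adjusted p = 3.29e-07). Rack1 was not called on day 3 (0.03, adjusted p = 0.831) and fell on day 6 (−0.40, adjusted p = 0.00217). Of 7 ribosomal protein genes or relatives outside the rule, 2 rose and 1 fell in D3RA relative to D3DMSO, and 0 rose and 5 fell in D6RA relative to D6DMSO. Rps3a1 and Rps3a3 also lie outside the rule and were not on that list. Rps3a1, with 53.1 counts on average, was at −0.70 on day 3 (adjusted p = 0.0071) and −0.89 on day 6 (adjusted p = 0.000998). Rps3a3, with 4245 counts, was at 0.54 (adjusted p = 0.00107) and −0.38 (adjusted p = 0.0116).

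The genes that make and assemble ribosomes were mostly lower in both day 3 groups than in D0. Of 48 large subunit assembly factors, 1 was higher and 43 lower in D3RA than in D0 (median −0.85), while 36 members were higher and 12 lower in the same comparison. Of all genes 35% were higher and 33.9% lower there, and 28.2% higher and 27.8% lower in D3DMSO relative to D0. The same list had 1 higher and 43 lower in D3DMSO relative to D0 (median −0.63), which shares the D0 libraries. Nop2, a methyltransferase of the large subunit RNA, was at 119 ± 5.7 CPM in D3RA, 152 ± 12 CPM in D3DMSO and 319 ± 32 CPM in D0. Bop1, of the PeBoW complex, was at 60.2 ± 3.2 CPM in D3RA, 78.4 ± 4.7 CPM in D3DMSO and 166 ± 11 CPM in D0. Of 45 small subunit assembly factors, 2 were higher and 30 lower in D3RA than in D0 (median −0.67), and 2 higher and 31 lower in D3DMSO than in D0 (median −0.55). Of 13 proteins of box C/D and H/ACA particles, which guide modification of ribosomal RNA, 0 were higher and 11 lower in D3RA than in D0. Dkc1, the pseudouridine synthase, was at 121 ± 6.5 CPM in D3RA, 114 ± 2.2 CPM in D3DMSO and 271 ± 18 CPM in D0. Of 21 genes of RNA polymerase I and its factors, 2 were higher and 16 lower in D3RA than in D0, and Polr1b, a core subunit of the polymerase, was at 23.7 ± 2.0 CPM in D3RA, 33.2 ± 1.9 CPM in D3DMSO and 107 ± 5.4 CPM in D0.

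Between treatments on day 6 most genes of the assembly and particle lists were lower, and of the 21 polymerase I genes 4 were higher and 10 lower (median −0.20), where 32.6% of all genes were higher and 33.1% lower. In D6RA relative to D6DMSO, 1 of the large subunit assembly factors was higher and 38 of 48 were lower (median −0.41), 3 of the small subunit factors higher and 33 of 45 lower (median −0.34), and 0 of the box C/D and H/ACA proteins higher and 11 of 13 lower (median −0.53). Gnl3, a nucleolar GTPase of stem cells, was at 82.0 ± 1.4 CPM in D6RA and 178 ± 3.8 CPM in D6DMSO (log2 fold change −1.11, adjusted p = 3.09e-10). In D3RA relative to D3DMSO, 4 of the 48 large subunit factors were higher and 27 lower (median −0.25), and 4 of the 45 small subunit factors higher and 20 lower (median −0.15). Of 76 mitochondrial ribosomal proteins, which are nuclear-encoded and carry no place in the cytosolic ribosome, 23 rose and 16 fell in D3RA relative to D3DMSO (median 0.09), and 9 rose and 31 fell in D6RA relative to D6DMSO (median −0.15). Of all genes 30.7% were higher and 31.4% lower in D3RA relative to D3DMSO.

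**Figure D5:**
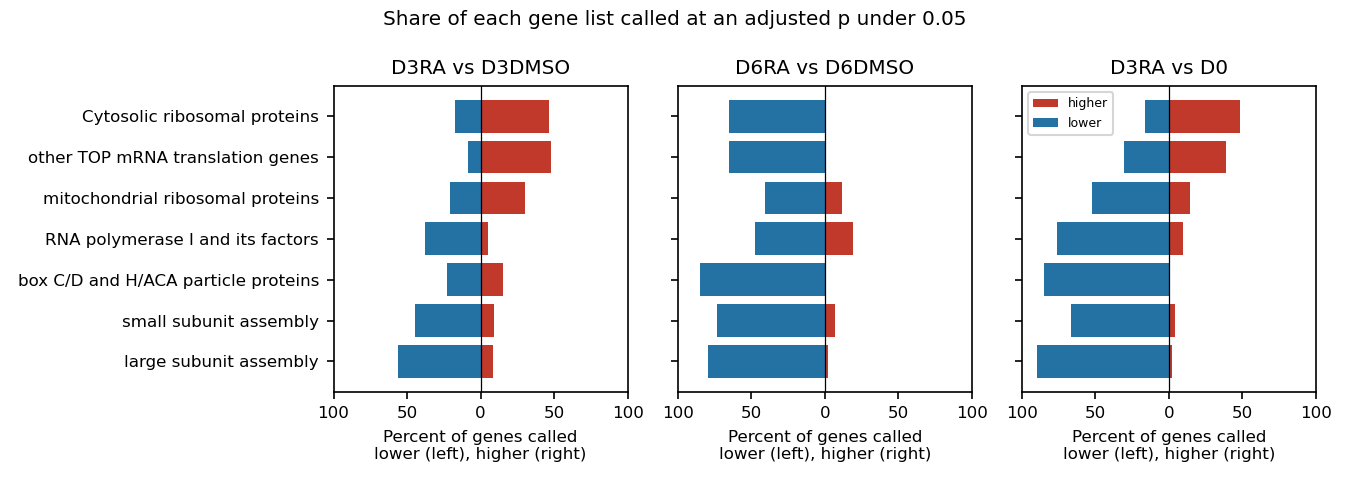
Percent of each gene list called lower (left of 0) and higher (right of 0) at an adjusted p under 0.05 in 3 comparisons. In D3RA vs D0 the bars of the cytosolic ribosomal proteins lie mostly to the right (36 of 75 higher, 12 lower), and those of the assembly lists almost wholly to the left (43 of 48 large subunit factors lower).

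Of 38 measured regulators of these genes, 10 rose and 14 fell in D3RA relative to D3DMSO, and 12 rose and 14 fell in D6RA relative to D6DMSO. Of all genes 30.7% were higher and 31.4% lower on day 3, and 32.6% and 33.1% on day 6, so these counts lie near those of all genes. Myc had 19.9 ± 5.4 CPM in D3RA, against 11.7 ± 2.5 CPM in D3DMSO (log2 fold change 0.76, adjusted p = 0.00177), and 5.01 ± 0.21 CPM in D6RA and 42.2 ± 5.5 CPM in D6DMSO (log2 fold change −3.06, adjusted p = 2.14e-10). Between D6DMSO and D3DMSO Myc rose (log2 fold change 1.86, adjusted p = 3.78e-07). In that comparison 42 members were lower and 2 higher, where 28.1% of all genes were lower and 28.3% higher. Mycn fell to 123 ± 12 CPM in D3RA against 225 ± 14 CPM in D0 (log2 fold change −0.88, adjusted p = 7e-08), and was at 137 ± 5.8 CPM in D3DMSO. Mycl rose to 151 ± 4.2 CPM in D6RA against 25.5 ± 0.88 CPM in D6DMSO (log2 fold change 2.56). Mxd4, a MAX partner that competes with MYC proteins, rose to 65.7 ± 6.5 CPM in D3RA against 6.00 ± 0.94 CPM in D0 (log2 fold change 3.45). It was at 31.8 ± 3.3 CPM in D3DMSO, also above D0. Larp1, which binds TOP tracts, had 77.7 ± 8.1 CPM in D3RA, against 242 ± 47 CPM in D3DMSO (log2 fold change −1.63, adjusted p = 3.9e-09), and 237 ± 3.7 CPM in D6RA and 469 ± 43 CPM in D6DMSO (−0.98). Eif4ebp1, which restrains cap-dependent initiation when mTOR is low, had 33.6 ± 2.0 CPM in D3RA, against 200 ± 15 CPM in D3DMSO (−2.57). The part of any of these genes in the levels of the members was not tested.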

How the data were processed

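RNA was measured in 15 libraries, 3 for each of D0, D3RA, D3DMSO, D6RA and D6DMSO, grouped by the day and treatment in the titles; the 18 chromatin samples of the series were not used here. The kit was stranded and removed ribosomal RNA, per the labels' protocols. STAR 2.6.0c, featureCounts, edgeR, limma, Trimmomatic 0.32 and the mm9 genome are listed per the submitters' processing notes, without saying which made this table. How reads that map to several places were counted is not given in the sources used here.

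The deposited values are log2 values of 14717 Ensembl genes (14228 matched to a symbol, 489 not), with a lowest value of 1.0. With the log2 undone, each library's values less an offset of 0.5 count were whole numbers within 0.05 in 100% of cases, and these were taken as counts. CPM were made with library sizes that follow the deposited scale. CPM are not divided by gene length, so levels were not compared between genes. Intervals for counting error were not computed. The ± after a level in CPM or a share is the SD of 3 libraries. The ± after a log2 fold change, or a difference of these, is the standard error from limma. That error rests on 1 estimate of the spread shared by all 5 groups.

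Genes were compared with limma 3.58.1 (R 4.3.3) on the values as deposited, allowing a trend in the variance, with 1 coefficient per group, 10 residual degrees of freedom, Benjamini-Hochberg adjustment over all 14717 genes and a threshold of 0.05. The procedure was tested on simulated data with known fold changes. Replicate numbers were checked for pairing: in 30 pairs of libraries with the same number the deviations from the group means correlated at −0.148 to 0.212, 2 of them over 0.1, so the numbers were not used to pair samples. No replicate pair was identical. Python 3.11.15 with scipy 1.17.1, numpy 2.4.6, pandas 2.3.3 and matplotlib 3.10.9 was used for tables and figures.

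The members and gene lists were chosen with earlier results of these data known. Named were a fixed panel (paralogs and their partners, the stalk, Rpsa, Rpl38, Rps6, the 5S particle, and Rps19, Rps26 and Rpl35a), the 5 highest and 5 lowest called members of each comparison, the 5 largest and 5 smallest F statistics, and the 5 most similar profiles outside the members, leaving out names that are predicted or IDs only (4 of the 20 most similar). A few members and list genes that the rule names are counted but not reported by name here. Genes on the other lists were named after their values were seen. Alternatives were quantile and median-of-ratios scaling, median-of-ratios scaling also without the members, total non-mitochondrial counts, a filter of 5 CPM in 3 libraries, no trend, voom weights, a fit of each comparison's own groups, a block for the replicate number, thinning to 2189364 counts and leaving out each library. Chosen after seeing the data were total counts without mitochondrial genes and the 4 features, copies added to their gene, and leaving out 5 libraries. Sequences are those of the RefSeq promoter table (GRCm38.p6), a different build from that of the files, so no gene coordinates other than those of the printed windows are given.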

Additional observations from a re-analysis of the deposited data

Results flagged for a closer look

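The effect of RA relative to DMSO differed between day 6 and day 3 in 23 of the 44 members named here, each by the interaction term of limma with adjusted p-values from 2.1e-08 to 0.0315 over all genes. All 23 values were below 0, and 47 of all 75 members were called lower in that term, beside 23.1% of all genes. On the log2 scale the differences were −1.37 for Rps26, −1.28 for Rpl22, −1.25 for Rpl35, −1.11 for Rpl14, −1.10 for Rpl31, −1.08 for Rpl23, −1.04 for Rpl12, −0.93 for Rplp1, −0.92 for Rps25, −0.92 for Rps19, −0.87 for Rpl39 and −0.86 for Rpl27a. They were −0.79 for Rpsa, −0.78 for Rpl26, −0.73 for Rps20, −0.73 for Rpl37a, −0.71 for Rpl35a, −0.69 for Rpl13, −0.67 for Rps4x, −0.67 for Rps15a, −0.60 for Rps27l, −0.56 for Rps28 and −0.53 for Rpl3. The call of Rpl3 was lost without D3RA replicate 1, D3DMSO replicate 3, D6RA replicate 2 or 3 or D6DMSO replicate 2 or 3 taken singly (adjusted p of 0.0569 to 0.074). The D6 libraries are deeper than the D3 libraries and hold mitochondrial counts that the D3 libraries do not, and the part of this difference in the interaction was not tested.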

How the results depend on the processing

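Counts of called members depended most on the library size. With all non-mitochondrial counts as library size, members called higher numbered 2 in D3RA vs D3DMSO, 4 in D3RA vs D0 and 0 in D3DMSO vs D0. Of all 14717 genes, 1826, 2382 and 2131 were higher in the same order. Members called lower numbered 29 in D6RA vs D6DMSO, 0 in D3DMSO vs D0, 27 in D6RA vs D3RA, 3 in D6DMSO vs D3DMSO and 5 in the interaction. Of all genes, 3659, 2343, 1393, 1064 and 1170 were lower in the same order with that library size. That size holds the 4 features, which take up to 45.73% of the counts. With total counts without mitochondrial genes and the 4 features, 3 members and 3490 of all genes were lower in D3DMSO vs D0. Quantile normalization gave 4 members and 4168 of all genes lower in D3DMSO vs D0, and the fit without a trend 5 members and 4004 genes. Thinning, which lowers depth, gave 13 higher and 4 lower in D3DMSO vs D0 and 1 higher in D6DMSO vs D3DMSO. A fit of the compared groups alone called 1 member higher in D6RA vs D6DMSO. With named copies added, 6 members were lower in D3RA vs D3DMSO, where 31.4% of all genes were lower in the fit without copies added. Without the 5 libraries 23 were higher in D3RA vs D3DMSO, 5 lower in D3RA vs D0, and 32 higher and 0 lower in D3DMSO vs D0. The cause was not tested where none is named.

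The members' share of non-mitochondrial counts was 2.50% in D0 and 1.57% in D6RA without the 4 features in the denominator, and 1.92% in D0, 1.39% in D6RA and 1.86% in D6DMSO without Rpl4, the member of the highest count.

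Leaving out 1 library at a time, members called higher numbered 27 to 42 in D3RA vs D3DMSO, 0 in D6RA vs D6DMSO, 34 to 39 in D3RA vs D0, 12 to 22 in D3DMSO vs D0, 0 in D6RA vs D3RA, 1 to 3 in D6DMSO vs D3DMSO and 0 in the interaction. Members called lower numbered 12 to 14, 41 to 53, 8 to 13, 4 to 13, 65 to 70, 31 to 44 and 42 to 52 in the same order. The fewest lower in D3RA vs D0, 8, came without D3RA replicate 3.

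Among members named for a comparison or by the fixed panel or F statistic, values called in at least 1 of the 2 fits changed sign in 18 cases. With total non-mitochondrial counts they did for Rplp0 in D3RA vs D3DMSO (−0.10), Rplp1 in D3RA vs D0 (−0.01) and Rpl10 in D6RA vs D3RA (0.08). After thinning they did for Rpl29 (0.31) and Rps29 (0.25) in D6RA vs D6DMSO, Rps29 in D6RA vs D3RA (0.23) and Rpl3 in the interaction (0.04). With copies added they did for Rpl3 (0.19), Rps6 (0.20), Rps27 (0.72) and Rpl38 (0.52) in D3RA vs D3DMSO, Rpl38 (0.04) in D6RA vs D6DMSO, Rpl3 (0.23), Rpl38 (0.69) and Rps6 (0.51) in D3RA vs D0, Rpsa (−0.26) in D6DMSO vs D3DMSO, and Rps6 (−0.60) and Rpl23a (−0.95) in the interaction. Of 5495 values of single members under the alternatives, 5124 stayed on their side of the threshold, 272 lost the call and 81 gained one with the same sign, and the other 18 are those just given. Of the 5124, 111 values called in neither fit changed sign at 2 decimals, among them, with copies added, Rpl23a (0.28) and Rpl28 (−0.07) in D3RA vs D3DMSO, Rpl28 in D3DMSO vs D0 (0.04) and D6RA vs D3RA (−0.06), and Rps27 in D6DMSO vs D3DMSO (0.01).

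The labels number the samples 1 to 3 in each group, and the deviations of same-numbered libraries correlated weakly, at −0.148 to 0.212. The highest value was that of replicate 1 of D3DMSO and D3RA. These 2 libraries had the smallest share of the 4 features in their groups (3.09 and 1.97%) and the highest summed level of the members. With a replicate block, 36 members were higher and 13 lower in D3RA vs D3DMSO, 52 lower in D6RA vs D6DMSO, 36 higher and 12 lower in D3RA vs D0, 20 higher and 9 lower in D3DMSO vs D0, 67 lower in D6RA vs D3RA, 2 higher and 42 lower in D6DMSO vs D3DMSO, and 47 lower in the interaction. Members with few counts are limited by depth: 8 members held under 100 counts per library on average and 25 held 100 to 1000.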
